A study of Mus musculus with 19 samples.

Results

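The FOXO transcription factors and a group of genes tied to the resting state of lymphocytes were followed in natural killer (NK) cells given interleukin-2 (IL-2) with or without a JAK inhibitor. The group holds 10 genes: Foxo1, Foxo3, Tcf7, Btg1, Btg2, Tob1, Txnip, Pik3ip1, Bach2 and Tsc22d3. Each gene was read from the probe set that the platform annotation gives to that symbol alone, with the brightest taken where there were several. This found 9 of the 10 genes, each with 1 probe set, among 19752 genes in all. Tcf7 was not analysed here.

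The cells came from spleens of 6-week-old male C57BL/6 mice, were enriched by negative selection, are labelled with the marker NK1.1, and were hybridized to 19 mouse gene arrays. All IL-2 cultures received 250 U/ml for 8 h. An inhibitor of JAK3 (code 6226) was added to IL-2 at 0.25, 1 and 4 µM with 2 samples each, and an inhibitor of JAK1 (code 3404) at 0.25 and 1 µM with 2 samples each and at 0.0625 and 4 µM with 1 sample each. IL-2 alone had 4 samples and untreated cells had 3, of which 2 are labelled 8 h and 1 (replicate 2) carries no culture time. The labels do not say whether samples of a group are separate mice or cultures, so the p-values below rest on sample-to-sample spread that could be technical in origin.

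IL-2 signals through a receptor whose beta chain carries JAK1 and whose common gamma chain carries JAK3, and activates STAT5 as well as the PI3K and AKT kinases. AKT phosphorylates FOXO factors, which then leave the nucleus, so that in resting lymphocytes FOXO proteins keep homing, survival and cell-cycle-arrest genes transcribed and in stimulated cells they do so less. BTG and TOB proteins restrain proliferation by recruiting the deadenylases that shorten messenger RNA tails. Control of FOXO by AKT acts on the protein, which an array of transcripts does not measure.

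The deposited intensities lie on 2 scales, a high-intensity set of 7 samples and a low-intensity set of 12, which differ by a median of 1.64 on the log2 scale over all genes (SD 0.38). The fit therefore held a term for the set, and values of single samples are given below within their set as log2 of the deposited intensity. Group levels are given with the fitted set difference removed, on the scale of the low-intensity set. The untreated sample in the high-intensity set is replicate 2, the one with no culture time. Both samples with the JAK3 inhibitor at 4 µM and the single samples with the JAK1 inhibitor at 0.0625 and 4 µM lie in the low-intensity set. The number of arrays limits the precision, and no measure of signal over background was used.

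The enriched cells carried transcripts of other cell types as well as of NK cells. The B cell markers Cd79b and Cd79a stood at percentile 99.8 of all genes in the low-intensity set, and the NK markers Il2rb and Nkg7 at 99.4 and 99.1. The dimmest of the 11 B cell markers measured, Cr2, stood at percentile 52.4. A percentile does not show signal over background, so detection of each marker was not tested. With IL-2 against untreated cells, 9 of 10 NK markers rose, 4 of 11 B cell, 6 of 11 macrophage and monocyte, 7 of 10 neutrophil, 2 of 8 dendritic cell and 1 of 8 erythroid and platelet markers fell, 1 macrophage marker, 1 dendritic cell marker and 1 of 2 markers of innate lymphoid types 2 and 3 rose, and 0 of 10 T cell markers passed the threshold (limma, adjusted p under 0.05). In this comparison 9.15% of all genes were called. The summed intensity of the B cell markers was 6473 to 7090 with IL-2 and 7833 to 8868 in untreated cells, and that of the macrophage and monocyte markers, led by Lyz2 and Csf1r, was 1916 to 2565 with IL-2 and 5938 to 6688 in untreated cells. Across 0.25, 1 and 4 µM of the JAK3 inhibitor the B cell sums were 8698 to 9072, 8265 to 8636 and 7598 to 8837, all above IL-2 alone, and the macrophage and monocyte sums were 5671 to 6634, 6520 to 6603 and 5642 to 7281. Across 0.0625, 0.25, 1 and 4 µM of the JAK1 inhibitor the B cell sums were 6973, 7414 to 7885, 8323 to 8499 and 8224, and the macrophage and monocyte sums 2939, 3745 to 4050, 5648 to 6594 and 6298. Of all 19752 genes, 2.74%, 2.86% and 3.01% were called higher than with IL-2 alone at the 3 doses of the JAK3 inhibitor, and 446, 728 and 889 genes lower. At the 4 doses of the JAK1 inhibitor 0.00506%, 0.729%, 2.85% and 1.14% were called higher. Against IL-2 alone, the JAK3 inhibitor at its 3 doses raised 4, 1 and 4 of 11 B cell markers, 6 of 11 macrophage and monocyte markers each time and 5, 6 and 4 of 10 neutrophil markers, and lowered 9, 9 and 7 of 10 NK markers and, at 4 µM, 1 macrophage marker. The JAK1 inhibitor at 0.0625, 0.25, 1 and 4 µM raised 0, 0, 2 and 1 B cell markers, 0, 3, 6 and 6 macrophage and monocyte markers and 0, 1, 6 and 5 neutrophil markers, and lowered 0, 0, 8 and 7 NK markers and, at 4 µM, 1 macrophage marker. Some of these counts rested on single samples. In fits that left out 1 sample, the B cell markers that fell with IL-2 numbered 2 (without untreated replicate 2 or IL-2 replicate 3) to 7 (without untreated replicate 3). The B cell markers raised by the JAK3 inhibitor numbered 0 to 3 at 0.25 µM (0 without its replicate 1), 0 to 1 at 1 µM (0 without either of its samples or IL-2 replicate 2 or 3) and 1 to 3 at 4 µM (1 without its replicate 1), and those raised by the JAK1 inhibitor at 1 µM numbered 0 without either of its samples and at 4 µM 0 without IL-2 replicate 3. The neutrophil count at 0.25 µM of the JAK3 inhibitor was 2 without either of its samples, that at 1 µM was 2 without its replicate 2, and that at 1 µM of the JAK1 inhibitor was 2 or 1 without its replicate 1 or 2. The 8 NK markers lowered at 1 µM of the JAK1 inhibitor were 2 without its replicate 2, and the 3 macrophage and monocyte markers raised at 0.25 µM of it were 1 without its replicate 2. The count of raised macrophage and monocyte markers stayed at 5 to 6 in these fits for the JAK3 inhibitor at each dose and for the JAK1 inhibitor at 1 and 4 µM. Several of the genes followed here are also transcribed in B cells or myeloid cells, and in such bulk samples fewer cells of a type and less RNA per cell cannot be told apart. The part of these cell types in the results below was not tested.

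**Figure D1:**
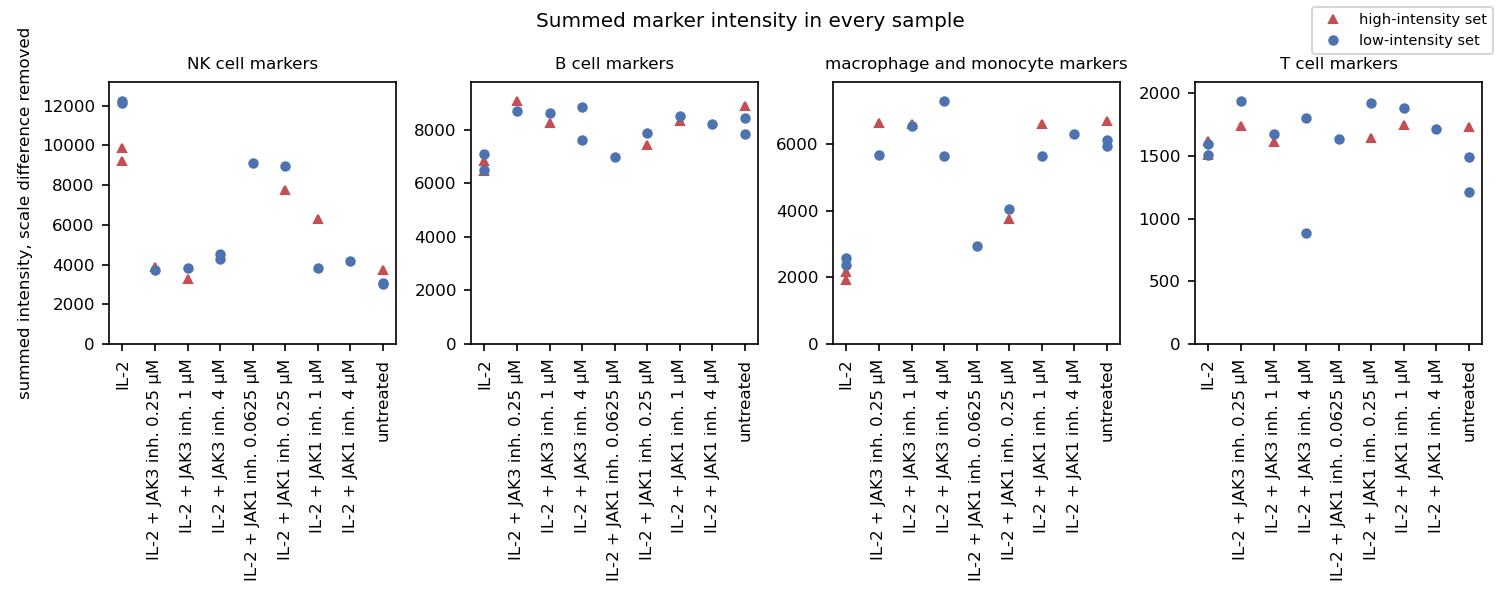
Summed intensity of the NK (10 genes), B cell (11), macrophage and monocyte (11) and T cell (10) markers in every sample, with the scale difference removed, by treatment group. Points are samples of the high-intensity (triangles) and low-intensity (circles) sets. NK sums are high with IL-2 and low in untreated cells, B cell and macrophage sums run the other way, and the lowest T cell sum, 882.9, belongs to the JAK3 inhibitor at 4 µM.

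In cells given IL-2, the resting-state genes lay mostly below their level in untreated cells, and with either inhibitor added to IL-2 they lay mostly above the level with IL-2 alone. The difference between IL-2 and untreated cells did not pass the threshold for any of them. Tsc22d3, the glucocorticoid-induced leucine zipper protein, moved furthest with IL-2 (log2 change -0.54), and it was higher with the JAK3 inhibitor at all 3 doses, with the JAK1 inhibitor at 1 µM and in the single sample with the JAK1 inhibitor at 4 µM. Btg1 had the brightest signal of the group and moved least. Foxo1, Foxo3, Btg1 and Bach2 passed in no comparison.

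With IL-2 against untreated cells, 0 of the 9 genes passed an adjusted p of 0.05 in limma, against 9.15% of all genes tested. The unadjusted p was under 0.05 for 4 of the 9 and for 3769 of all 19752 genes. The log2 change was negative for 7 of the 9 and positive for 2, where 47.4% of all genes had a positive change. The median was -0.18 for the 9 against -0.01 for all genes. Tob1 and Pik3ip1 were lower in every IL-2 sample than in every untreated sample within both intensity sets, which held for 6.4% of all genes. The change was more negative in the high-intensity set, where the only untreated sample is replicate 2, than in the low-intensity set for each of the 9 genes. Without untreated replicate 3, Tsc22d3 passed the threshold (log2 change -0.74, adjusted p 0.00455).

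**Figure D2:**
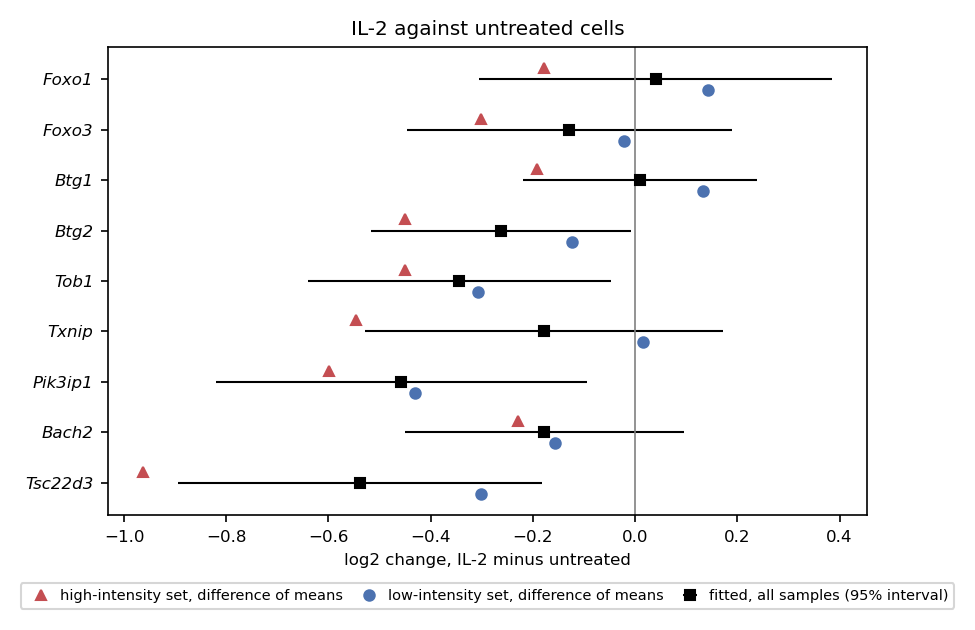
Log2 change with IL-2 against untreated cells for the 9 genes. Squares with 95% intervals are the fit over all samples, and triangles and circles are the differences of the group means within the high-intensity and low-intensity sets. The fitted changes run from -0.54 for Tsc22d3 to 0.04 for Foxo1.

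Added to IL-2 at 0.25 µM, the JAK3 inhibitor raised 2 of the 9 genes over IL-2 alone, Btg2 and Tsc22d3, where 2.74% of all genes were called higher. At 1 µM it raised 3, Btg2, Tob1 and Tsc22d3, against 2.86% of all genes, and at 4 µM it raised 3, Btg2, Txnip and Tsc22d3, against 3.01%. The median log2 change of the 9 genes was 0.38, 0.37 and 0.49 at the 3 doses, where all genes had 0.06, 0.02 and -0.04. All 9 genes had a positive change at each dose, against 65.2%, 56.9% and 42.5% of all genes. Some of these changes were close to 0: Btg1 at 0.25 and 1 µM (0.002 and 0.03) and Bach2 at 4 µM (0.04). Every inhibitor sample lay above every IL-2 sample within both intensity sets for 8 of the 9 genes at 0.25 µM (all but Btg1), against 19.4% of all genes, and for 7 at 1 µM (all but Btg1 and Foxo1), against 21.6%.

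The JAK1 inhibitor raised 0 of the 9 genes at 0.0625 µM, where 0.00506% of all genes were called higher and 0 of the 9 had an unadjusted p under 0.05. At 0.25 µM it raised 0, against 0.729% of all genes. There 3 of the 9 and 2415 of all 19752 genes had an unadjusted p under 0.05 in limma. At 1 µM it raised 3, Tob1, Pik3ip1 and Tsc22d3, against 2.85%. At 4 µM, where there is 1 sample, Tsc22d3 passed, against 1.14%. The groups at 0.0625 and 4 µM have no spread of their own, and their tests take it from the other groups. The median log2 change of the 9 genes was 0.04, 0.26, 0.43 and 0.25 over the 4 doses, where all genes had 0.08, 0.05, 0.08 and -0.10. Every inhibitor sample lay above every IL-2 sample within both sets for 5 genes at 0.25 µM (Foxo3, Btg2, Tob1, Bach2 and Tsc22d3), against 24.1% of all genes, and for 8 at 1 µM (all but Btg1), against 20.7%. For Tob1 at 0.25 µM this was a near tie, as inhibitor replicate 1 and IL-2 replicate 2 both read 7.80 in the high-intensity set. The inhibitor comparisons share the 4 IL-2 samples, so their values are set side by side and not counted as separate support.

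None of these calls passed in every fit that left out 1 sample. At 0.25 µM of the JAK3 inhibitor, Btg2 was lost without any 1 of the 6 samples (adjusted p 0.06 to 0.372) and Tsc22d3 without inhibitor replicate 1 (0.284) or 2 (0.381) or IL-2 replicate 1 (0.0937) or 4 (0.108). At 1 µM of it, Btg2 (0.0623 to 0.512) and Tob1 (0.0539 to 0.63) were lost without any 1 of the 6 samples, and Tsc22d3 without inhibitor replicate 1 (0.0589) or 2 (0.469) or IL-2 replicate 1 (0.0519) or 4 (0.0622). At 4 µM of it, Btg2 was lost without any 1 of the 6 (0.0589 to 0.133), Txnip without inhibitor replicate 1 (0.0589) and Tsc22d3 without inhibitor replicate 2 (0.0666), while Pik3ip1 passed without inhibitor replicate 1 (log2 change 0.87 in place of 0.50, adjusted p 0.017). At 1 µM of the JAK1 inhibitor, Tob1 and Pik3ip1 were lost without any 1 of the 6 samples other than IL-2 replicate 2 (0.0685 to 0.533 and 0.0503 to 0.744), and Tsc22d3 without inhibitor replicate 1 (0.0726) or 2 (0.331). At 4 µM of it, Tsc22d3 was lost without any 1 of the 4 IL-2 samples (0.0575 to 0.13). Median centring in place of the set term called fewer of all genes. For the JAK3 inhibitor it called 276, 430 and 602 in place of 987, 1293 and 1483, and for the JAK1 inhibitor at 1 µM 298 in place of 1019. With this centring, the counts of the 9 genes were 0, 0 and 1 for the JAK3 inhibitor and 0 and 0 for the JAK1 inhibitor at 1 and 4 µM. With the low-intensity set alone, which left 3 residual degrees of freedom, the counts were 0 for all of these doses. The high-intensity set alone left 1 residual degree of freedom and called 0 of all genes at 0.25 and 1 µM of either inhibitor, so it bears on none of these calls, and it holds no sample at 4 µM.

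**Figure D3:**
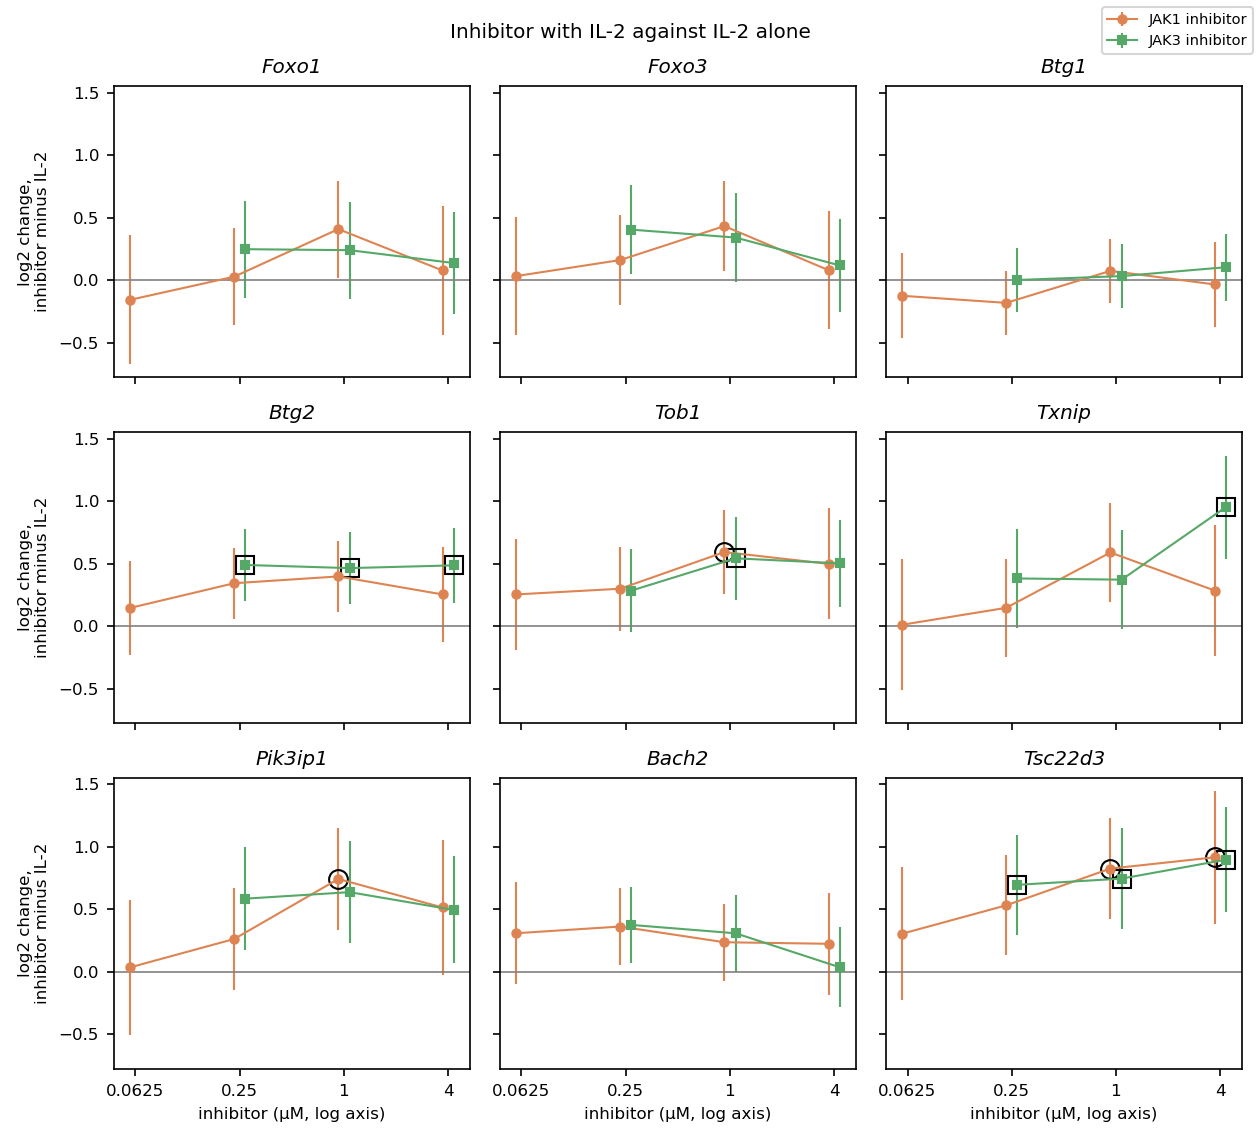
Log2 change with the JAK1 inhibitor (circles) and the JAK3 inhibitor (squares) added to IL-2, against IL-2 alone, by dose on a log axis, with 95% intervals. Black outlines mark adjusted p under 0.05 in limma. Outlined points are in the panels of Btg2, Tob1, Txnip, Pik3ip1 and Tsc22d3.

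Of the FOXO factors themselves, Foxo1 is the main lymphocyte form, needed for the homing and IL-7 receptor genes of resting T cells, and Foxo3 is a close relative with overlapping targets. Foxo1 read 8.65 and 8.76 in the low-intensity IL-2 samples and 9.62 and 9.91 in the high-intensity ones, against 8.30 and 8.82 in low-intensity untreated samples and 9.94 in the high-intensity one. Foxo3 read 7.26 and 7.20 with IL-2 in the low-intensity set and 8.50 and 8.66 in the high-intensity set, against 6.96 and 7.55 and against 8.88 in untreated samples. For both factors the groups overlapped in the low-intensity set and all high-intensity IL-2 samples lay below the untreated one. The fitted log2 changes with IL-2 were 0.04 ± 0.17 (SE) for Foxo1, with a 95% interval from -0.30 to 0.39, and -0.13 ± 0.15 for Foxo3, from -0.45 to 0.19.

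Against IL-2 alone, the largest change of either factor was with the JAK1 inhibitor at 1 µM, 0.41 ± 0.19 for Foxo1 (adjusted p 0.315, limma) and 0.43 ± 0.17 for Foxo3 (adjusted p 0.205). The JAK1 inhibitor samples at 1 µM read 9.14 and 10.15 for Foxo1 and 7.64 and 9.03 for Foxo3 in the low-intensity and high-intensity sets, above all IL-2 samples of their set. With the JAK3 inhibitor at 4 µM the 2 samples stood apart, at 8.58 in replicate 1 and 9.14 in replicate 2 for Foxo1 and at 7.06 and 7.55 for Foxo3. In replicate 1 of that group the summed T cell markers were 882.9, against 1803 in replicate 2 and 1507 to 1616 with IL-2 alone, and the part of this difference in the group's values was not tested. Over the 9 group means Foxo1 spanned 0.57 and Foxo3 0.43 log2 units, and no step between neighbouring groups in the order exceeded the residual SD of 0.23 or 0.20.

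Among genes known as FOXO targets or tied to quiescence, other than the genes above, some passed the threshold with IL-2 and with the inhibitors. Of 33 measured, 2 rose and 10 fell with IL-2 against untreated cells, where 9.15% of all genes were called, and 9 of these 12 passed in each of the 7 fits that left out 1 sample. Il7r, the IL-7 receptor alpha chain, fell by 1.85 on the log2 scale (adjusted p 1.84e-07), and S1pr1, the receptor that lets lymphocytes leave tissue, fell by 0.92 (adjusted p 2.83e-05). The death ligands Fasl (1.59, adjusted p 4.19e-07) and Tnfsf10 (1.42), which are listed as FOXO targets in other cells, rose. The median over the list was -0.17.

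Under the JAK3 inhibitor at 0.25, 1 and 4 µM against IL-2 alone, 9, 11 and 10 of the 33 listed genes rose, where 2.74%, 2.86% and 3.01% of all genes did, and 1, 2 and 2 fell, with medians of 0.35, 0.34 and 0.29. Il7r was higher by 1.90, 1.88 and 1.62 and Fasl was lower, at -1.45, -1.76 and -1.25, and both passed in every fit that left out 1 sample. Under the JAK1 inhibitor at 0.0625, 0.25, 1 and 4 µM, 0, 2, 11 and 3 rose, where 0.00506%, 0.729%, 2.85% and 1.14% of all genes did, and 0, 1, 2 and 2 fell, with Il7r at 0.07, 0.94, 1.62 and 1.87. At 0.25 µM the call of Il7r was lost without replicate 1 (adjusted p 0.0776) or 2 (0.287). The counts rested on single samples at several doses. Without inhibitor replicate 1 or 2 the total of 10 at 0.25 µM of the JAK3 inhibitor was 3 in both cases, and the 13 at 1 µM was 6 or 4, or 8 without IL-2 replicate 3. The 12 at 4 µM was 7 without replicate 2. The 3 at 0.25 µM of the JAK1 inhibitor was 0 without either of its samples and 1 without IL-2 replicate 3 or 4, and the 13 at 1 µM was 6 or 3 without its replicate 1 or 2.

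**Figure D4:**
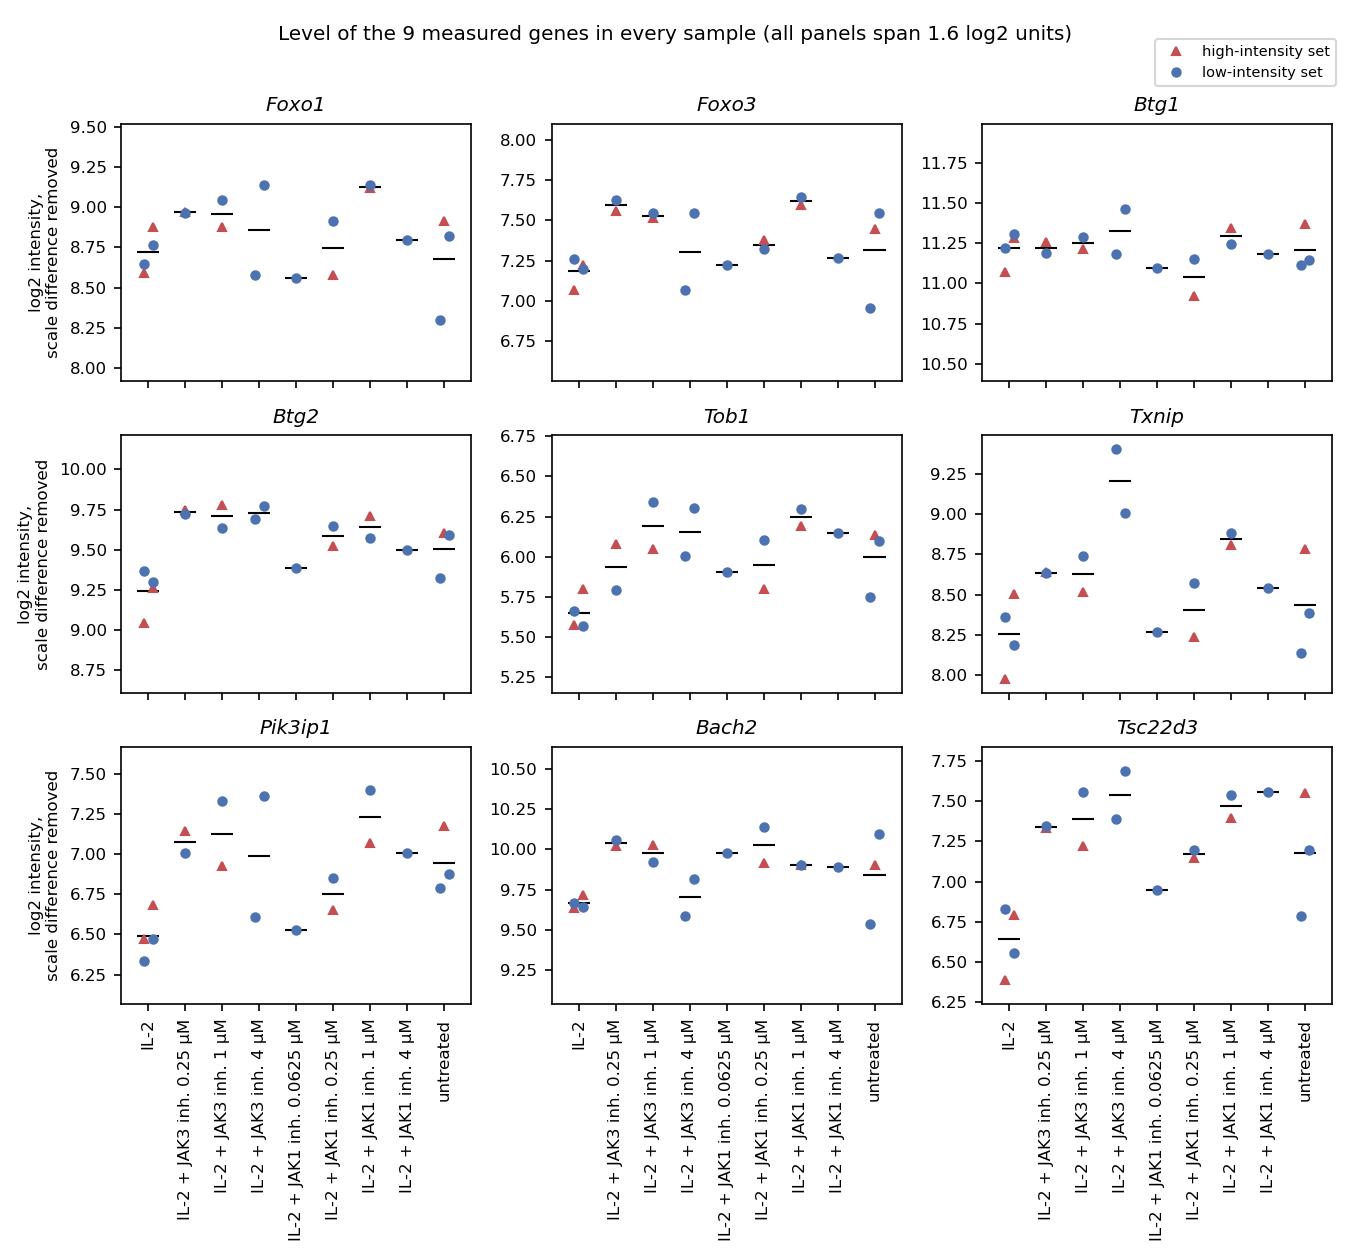
Log2 intensity of the 9 genes in every sample, with the scale difference removed, by treatment group. Triangles and circles are samples of the high-intensity and low-intensity sets, bars are group means, and every panel spans the same range on the log2 axis. The group mean is lowest with IL-2 alone for Foxo3, Btg2, Tob1, Txnip, Pik3ip1, Bach2 and Tsc22d3. Btg1 is nearly level, and Txnip is highest with the JAK3 inhibitor at 4 µM.

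Among the antiproliferative genes, Btg1 was very bright and nearly level. Its group means spanned 0.29 log2 units around percentile 99.8 of all genes, and its largest change against IL-2 was -0.18 ± 0.12 (SE), with the JAK1 inhibitor at 0.25 µM. In IL-2 samples it read 11.22 and 11.31 in the low-intensity set and 12.09 and 12.30 in the high-intensity set, against 11.12 and 11.14 and against 12.39 in untreated samples. IL-2 lay above untreated in the low-intensity set and below it in the high-intensity set, and the fitted change was 0.01 with a 95% interval from -0.22 to 0.24.

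Btg2, its close relative and a target of p53, was higher with the JAK3 inhibitor than with IL-2 alone. IL-2 samples read 9.37 and 9.30 in the low-intensity and 10.91 and 11.13 in the high-intensity set, against 9.32 and 9.59 and against 11.47 in untreated samples, with overlap in the low-intensity set. Samples with the JAK3 inhibitor read 9.72 and 11.61 at 0.25 µM and 9.64 and 11.65 at 1 µM (low-intensity and high-intensity set), and 9.69 and 9.77 at 4 µM, all above every IL-2 sample of their set. The log2 change against IL-2 was 0.49 ± 0.14, 0.46 ± 0.14 and 0.49 ± 0.14 over the 3 doses, or 1.40-fold, 1.38-fold and 1.40-fold, with adjusted p of 0.0422, 0.0467 and 0.0416 in limma. With the JAK1 inhibitor it was 0.14, 0.34, 0.40 and 0.25 over the 4 doses, with no adjusted p under 0.121.

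Tob1, which binds the same deadenylase complex and is known as a brake on T cell activation, had the dimmest signal of the group, at percentile 55.2. IL-2 samples read 5.66 and 5.57 in the low-intensity and 7.57 and 7.80 in the high-intensity set, against 5.75 and 6.10 and against 8.14 in untreated samples, with no overlap in either set. With the JAK1 inhibitor at 1 µM it read 6.30 and 8.19, and with the JAK3 inhibitor at 1 µM 6.34 and 8.05. The change against IL-2 was 0.59 ± 0.16 for the JAK1 inhibitor (1.51-fold, adjusted p 0.0331) and 0.54 ± 0.16 for the JAK3 inhibitor (1.46-fold, adjusted p 0.047). Of 17 measured BTG and TOB relatives and deadenylase subunits, 0 passed with IL-2 against untreated cells, where 9.15% of all genes were called. With an inhibitor against IL-2 also 0 passed, and the medians in all these comparisons lay between -0.07 and 0.12. The nearest was Cnot9 with IL-2 (0.52, adjusted p 0.0957), a subunit of the CCR4-NOT deadenylase. With 1 sample left out, 3 of the 17 passed without untreated replicate 2 and 1 at 4 µM of the JAK3 inhibitor without its replicate 1 and 1 without its replicate 2.

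The upstream 250 bases of Btg1 and Txnip were the only ones of the 9 genes to hold TGTTTAC, the core letters bound by FOXO proteins, and are shown for that reason, with the match in capitals. Sequences are 5′ to 3′ on the gene's strand, from RefSeq with build GRCm38.p6. Both strands were searched over 11 annotated starts of the 9 genes. The letters occur in 3.17% of all 32851 promoter windows of that length, and a match is a description of the letters only. Btg1 lies at chr10:96616751-96617000, plus strand, with the match 204 to 198 bases before the start. Txnip lies at chr3:96557707-96557956, plus strand, with the reverse complement GTAAACA 121 to 115 bases before it.
Btg1: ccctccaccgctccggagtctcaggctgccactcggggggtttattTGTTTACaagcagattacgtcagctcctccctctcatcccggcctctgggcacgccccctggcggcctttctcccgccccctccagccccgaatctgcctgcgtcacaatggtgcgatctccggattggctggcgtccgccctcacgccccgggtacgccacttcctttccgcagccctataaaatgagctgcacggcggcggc
Txnip: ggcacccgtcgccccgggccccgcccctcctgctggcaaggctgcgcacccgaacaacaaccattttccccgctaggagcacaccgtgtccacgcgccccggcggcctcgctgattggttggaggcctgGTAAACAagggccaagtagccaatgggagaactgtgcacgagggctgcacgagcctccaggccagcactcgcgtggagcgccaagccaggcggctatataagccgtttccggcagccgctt

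Txnip encodes an arrestin-like protein that binds thioredoxin and takes glucose transporters off the cell surface, and its transcription follows glucose through MondoA and, in some cells, FOXO factors. It showed the largest single change of the group. With the JAK3 inhibitor at 4 µM it read 9.41 and 9.01, against 8.36 and 8.19 in the IL-2 samples of the same low-intensity set. The log2 change was 0.95 ± 0.20, or 1.93-fold (adjusted p 0.0034, limma), and 0.75 with an adjusted p of 0.0589 without replicate 1, the sample with the low T cell markers. The other doses gave 0.38 and 0.37 (JAK3 inhibitor at 0.25 and 1 µM) and 0.01, 0.15, 0.59 and 0.28 (JAK1 inhibitor from 0.0625 to 4 µM), none with an adjusted p under 0.0862.

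In IL-2 samples Txnip read 8.36 and 8.19 in the low-intensity and 10.35 and 10.87 in the high-intensity set, against 8.14 and 8.38 and against 11.16 in untreated samples. The groups overlapped in the low-intensity set, and the fitted change was -0.18 ± 0.17. Of 11 arrestin relatives, MondoA and thioredoxin genes, 3 rose with IL-2, where 9.15% of all genes were called. They were the glucose transporter Slc2a1 (0.73), the mitochondrial thioredoxin Txn2 (0.65) and the MondoA partner Mlx (0.53). Mlx was lost without IL-2 replicate 2, 3 or 4 or untreated replicate 3 or 4 (adjusted p 0.0664 to 0.137). Under the JAK3 inhibitor at 4 µM, the Txnip relative Arrdc3 rose by 1.17 (adjusted p 0.000551) and passed in every fit that left out 1 sample. Txn2 fell by 0.61 there and by 0.57 at 1 µM, and these calls were lost in 4 of 6 and 5 of 6 such fits. Without replicate 1 of the 4 µM group the change of Txn2 was -0.26 (adjusted p 0.423). No listed gene passed with the JAK1 inhibitor.

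Pik3ip1 encodes a membrane protein that inhibits PI3K, the kinase upstream of AKT. IL-2 samples read 6.33 and 6.47 in the low-intensity and 7.93 and 8.14 in the high-intensity set, against 6.79 and 6.88 and against 8.64 in untreated samples. Every IL-2 sample lay below every untreated sample of its set, and the change of -0.46 ± 0.17 had an adjusted p of 0.126. With the JAK1 inhibitor at 1 µM it read 7.40 and 8.53, a change of 0.74 ± 0.20 against IL-2, or 1.67-fold (adjusted p 0.0279). With the JAK3 inhibitor at 0.25 and 1 µM the changes were 0.59 ± 0.20 (adjusted p 0.108) and 0.64 ± 0.20 (adjusted p 0.059), and at 4 µM the samples read 6.61 and 7.36, with replicate 1 the lower.

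Of 34 measured PI3K, AKT and mTOR components, 4 passed with IL-2, where 9.15% of all genes were called. Sesn2 (0.71) and Ddit4 (0.55), which both restrain mTOR, rose. The mTOR inhibitor Deptor (-0.48) and the AKT-related kinase Sgk3 (-0.51) fell. None of these 4 passed in each of the 7 fits that left out 1 sample, where the count ran from 0 to 5. Under the JAK3 inhibitor at 4 µM, Deptor (0.70, adjusted p 0.0065) and the kinase Sgk1 (0.72, adjusted p 0.0105), which also phosphorylates FOXO proteins, rose and passed in every such fit. At 1 µM Deptor was higher by 0.64 and Ddit4 lower (-0.72). Among JAK1 inhibitor groups, Rheb fell by 0.94 at 0.25 µM, and Deptor (0.56), Foxo4 (0.64) and Pik3cg rose at 1 µM. The calls at those 3 doses, of which Pik3cg was named after its value was seen, did not pass in every fit that left out 1 sample.

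Tsc22d3, known as GILZ, is a leucine zipper protein induced by glucocorticoids and by FOXO3 in T cells deprived of IL-2. IL-2 samples read 6.83 and 6.55 in the low-intensity and 8.17 and 8.57 in the high-intensity set, against 6.79 and 7.20 and against 9.33 in untreated samples. The high-intensity IL-2 samples lay below the untreated one and the low-intensity groups overlapped, and the change of -0.54 ± 0.17 had an adjusted p of 0.0533 in limma. Samples with the JAK3 inhibitor read 7.34 and 9.11 at 0.25 µM, 7.55 and 9.0 at 1 µM (low-intensity and high-intensity set), and 7.39 and 7.69 at 4 µM. All lay above every IL-2 sample of their set, by 0.70 ± 0.19, 0.75 ± 0.19 and 0.90 ± 0.20 on the log2 scale, or 1.62-fold, 1.68-fold and 1.86-fold (adjusted p 0.0388, 0.0197 and 0.00641).

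Under the JAK1 inhibitor, Tsc22d3 read 6.95 at 0.0625 µM, 7.20 and 8.93 at 0.25 µM, 7.54 and 9.18 at 1 µM and 7.56 at 4 µM. The changes against IL-2 were 0.31 ± 0.25, 0.53 ± 0.19, 0.83 ± 0.19 and 0.92 ± 0.25, with adjusted p of 0.643, 0.197, 0.0121 and 0.0492, the first and the last from 1 sample each. Its level with the scale difference removed averaged 6.64 ± 0.21 with IL-2 alone (SD, n = 4) and 7.18 ± 0.38 in untreated cells (n = 3). The lowest group was IL-2 alone and the highest the JAK1 inhibitor at 4 µM, 0.92 log2 units apart, and of the 8 steps between neighbouring groups 1 exceeded the residual SD of 0.24. Of 9 glucocorticoid-responsive genes and TSC22 relatives, 1 rose with IL-2, where 9.15% of all genes were called. It was Fkbp5 (0.62), a chaperone induced by glucocorticoids. With inhibitors 1 rose, where 2.74%, 2.86% and 3.01% (JAK3 inhibitor) and 2.85% (JAK1 inhibitor at 1 µM) of all genes were called higher. It was the phosphatase gene Dusp1, by 0.98, 0.76 and 0.66 with the JAK3 inhibitor over its doses and by 0.79 with the JAK1 inhibitor at 1 µM. Each of these 5 calls was lost in at least 1 fit that left out 1 sample.

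Bach2 encodes a transcriptional repressor that holds lymphocytes back from effector differentiation and is needed in B cells, where its transcript is also abundant. The 4 IL-2 samples were close together, at 9.67 and 9.64 in the low-intensity and 10.94 and 11.02 in the high-intensity set, against 9.53 and 10.09 and against 11.21 in untreated samples. The untreated samples lay on both sides of IL-2 in the low-intensity set. Its largest change against IL-2 was 0.38 ± 0.15 with the JAK3 inhibitor at 0.25 µM (adjusted p 0.21), and at 4 µM it was 0.04 ± 0.15. Among 10 TCF, LEF and BACH relatives and partners, Maff (0.61, adjusted p 0.00267) and Mafk (0.87, adjusted p 0.00813) rose with IL-2, where 9.15% of all genes were called. Both are small Maf proteins that pair with BACH factors, and Mafk was lost without untreated replicate 3 (0.0521). Maff fell with the JAK3 inhibitor at each dose (-0.63, -0.67 and -0.72) and with the JAK1 inhibitor at 1 and 4 µM (-0.53 and -0.81), and only the call at 4 µM of the JAK3 inhibitor passed in every fit that left out 1 sample. Bach1 rose with the JAK3 inhibitor at 1 and 4 µM (0.61 and 0.63) and with the JAK1 inhibitor at 1 µM (0.57), and each of these was lost in at least 1 such fit.

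The upstream windows of Bach2 and of 1 of the 3 annotated starts of Tsc22d3 held TTCNNNGAA, the letters bound by STAT factors, and are shown with the match in capitals. The letters read the same on both strands and occur in 7.02% of all windows. The match lies 140 to 132 bases before the start of Bach2 (chr4:32417185-32417434, plus strand) and 207 to 199 bases before that of Tsc22d3 (chrX:140548572-140548821, minus strand). The exact E-box letters CACGTG were in none of the 11 windows of the 9 genes and in 6.02% of all windows. Imperfect forms of the E-box were not searched, so this count does not show that a site for MondoA is absent.
Bach2: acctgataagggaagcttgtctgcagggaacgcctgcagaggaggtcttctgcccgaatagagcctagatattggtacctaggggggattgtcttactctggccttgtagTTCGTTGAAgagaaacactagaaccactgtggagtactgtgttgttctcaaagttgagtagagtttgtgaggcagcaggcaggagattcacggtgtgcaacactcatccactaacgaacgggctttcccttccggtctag
Tsc22d3: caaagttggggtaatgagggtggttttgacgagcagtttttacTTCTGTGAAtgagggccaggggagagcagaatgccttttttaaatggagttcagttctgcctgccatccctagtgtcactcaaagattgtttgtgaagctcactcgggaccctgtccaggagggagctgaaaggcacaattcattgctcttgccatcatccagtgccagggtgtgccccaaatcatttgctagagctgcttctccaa

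At matched doses the JAK1 and JAK3 inhibitors did not differ past the threshold for any of the 9 genes. The counts were 0 of 9 at 0.25 µM, where 0.451% of all genes differed, and 0 at 1 and 4 µM, where 0% of all genes did in limma. At an unadjusted p under 0.05 the counts were 0, 0 and 1 of the 9 and 1301, 167 and 532 of all genes. That gene was Txnip at 4 µM, which read 8.54 in the JAK1 inhibitor sample and 9.41 and 9.01 in the JAK3 inhibitor samples, a difference of -0.67 ± 0.27 (p 0.0215 before adjustment and 1 after it, limma). For Tsc22d3 the differences were -0.16 (95% interval -0.63 to 0.30), 0.08 (-0.38 to 0.54) and 0.02 (-0.55 to 0.59) at 0.25, 1 and 4 µM, so these values do not show that the compounds act alike. At 0.25 µM, 1 of the 9 genes and 44.9% of all genes were nominally higher with the JAK1 inhibitor, and the other 8 of the 9 were nominally lower. The median difference was -0.18 for the 9 and -0.02 for all genes. At 1 µM, 7 of the 9 and 68.8% of all genes were nominally higher, with medians of 0.08 and 0.06. Of the 33 FOXO targets 1 differed, Fasl at 0.25 µM, which was 1.06 higher with the JAK1 inhibitor (adjusted p 0.0186), a call that was lost in each of the 4 fits that left out 1 of the compared samples.

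**Figure D5:**
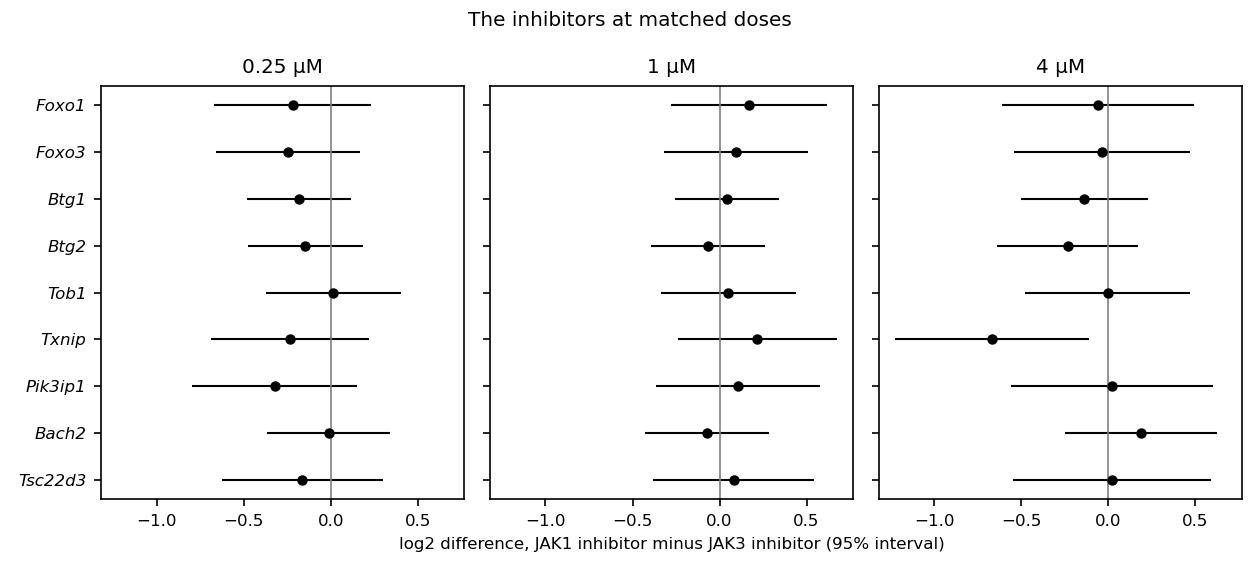
Log2 difference between the JAK1 inhibitor and the JAK3 inhibitor at 0.25, 1 and 4 µM, both with IL-2, for the 9 genes with 95% intervals. All intervals cross 0 except that of Txnip at 4 µM, which runs from -1.23 to -0.11.

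The slope over dose passed the threshold for 0 of the 9 genes with either inhibitor. It passed for 2.78% of all genes with the JAK1 inhibitor and 0.152% with the JAK3 inhibitor. With each inhibitor 1 of the 9 had an unadjusted p under 0.05 in limma, where 4062 and 1772 of all 19752 genes did. Of the 9 genes these were Tsc22d3 with the JAK1 inhibitor (0.21 ± 0.10 per 4-fold step, adjusted p 0.218) and Txnip with the JAK3 inhibitor (0.29 ± 0.11, adjusted p 0.468). Against untreated cells, cells with IL-2 and 4 µM of an inhibitor differed for 0 of the 9 genes, and 0% of all genes differed for the JAK1 inhibitor and 0% for the JAK3 inhibitor in limma, where 1270 and 1714 genes had an unadjusted p under 0.05. The nearest was Txnip with the JAK3 inhibitor, 0.77 ± 0.20 above untreated (p 0.00112 before adjustment, 0.479 after it, limma), and Tsc22d3 lay 0.38 ± 0.26 and 0.36 ± 0.21 above untreated with the JAK1 and JAK3 inhibitor.

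Over the 9 group means, Tob1 and Tsc22d3 ran most alike among the genes of the group (Pearson's r 0.92), followed by Foxo1 and Foxo3 (0.88) and by Pik3ip1 and Tsc22d3 (0.87), while Btg1 and Bach2 ran least alike (-0.52). Outside the group, Tsc22d3 was most like Ebf1 (0.99), a transcription factor that defines B cells and is on the B cell marker list here, and Sgsh (0.99). Pik3ip1 was most like Flt3 (0.99), a receptor on the dendritic cell list here, and Hexa (0.99). Foxo3 was most like Syne1 (0.99) and Il5ra (0.98), Foxo1 like Kdm5b and Specc1l (0.97 each), and Btg2 like Rab11fip1 and Slc46a3 (0.97 each). The nearest genes were Lrrc10b (0.98) and Fbxo21 (0.97) for Txnip, Hmgb2 (0.96) and Mtus1 (0.95) for Tob1, Atp2c1 and Exoc3 (0.97 each) for Btg1, and Blvrb (0.94) and Adamts8 (0.92) for Bach2. These correlations are across 9 group means that share arrays and the fitted set term, were searched over all genes, and describe likeness only.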

How the data were processed

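RNA from 19 NK cell samples was measured on Affymetrix Mouse Gene 1.0 ST arrays, 1 array each. The authors deposited 1 intensity per probe set, produced by RMA in Affymetrix Power Tools per the submitters' processing notes, which give no versions. Values are on a linear scale, and no background or detection values were used. Samples were grouped by their titles. Of 24922 probe sets, 21425 had 1 symbol, 1399 several and 2098 none listed. The brightest probe set stood for each of 921 genes with several, which gave 19752 genes.

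Their log2 was modelled over all 19 samples in limma 3.58.1 (R 4.3.3), using lmFit on group and intensity set followed by eBayes with an intensity trend, which gave 9 residual and 10.5 prior degrees of freedom. A group with a single sample borrows its variance from the rest. Benjamini-Hochberg adjustment ran over all genes within each of 15 comparisons at a threshold of 0.05, and every adjusted p in the text is from limma. Intervals are at 95%. The fit was tried on simulated data with changes of a single size, in the IL-2 group only. That trial does not show how the fit handles other sizes of change or groups with a single sample.

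The members and gene lists were chosen with earlier results of these data known. Genes named from a list are the 4 with the smallest p for IL-2 against untreated cells and 2 in each other comparison, and 2 genes most like each member. Tcf7 and some genes of the lists are not reported here. Alternatives changed the scaling, the samples fitted, the low-value filter, the intensity trend, the probe set rule and the replicate block, and left out each sample in turn. Promoter windows are RefSeq's (GRCm38.p6). Windows and figures were handled in Python 3.11.15 (pandas 2.3.3; numpy 2.4.6; matplotlib 3.10.9).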

Additional observations from a re-analysis of the deposited data

How the results depend on the processing

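Across all 15 comparisons and their alternatives, the values of the 9 genes kept their side of the threshold 1675 times, gained it 38 times and lost it 87 times, and no called value changed sign. The 1675 are mostly values that were uncalled and stayed so, because only values called in the main fit could be lost. Those numbered 2, 3 and 3 with the JAK3 inhibitor at 0.25, 1 and 4 µM. With the JAK1 inhibitor they numbered 3 at 1 µM and 1 at 4 µM. For IL-2 against untreated cells the count of genes past the threshold was 0. It was 3 with quantile normalization, 1 with the lowest 25% of genes left out, 1 without the intensity trend and 2 with the replicate number as a block, all lower with IL-2. Of all genes, 2551, 1955, 1902 and 3233 were called under these settings, and 1808 in the main fit. With the JAK3 inhibitor at 0.25 µM the count of 2 was 0 with median centring, 5 with quantile normalization, 0 in the low-intensity set, 0 in the high-intensity set and 5 with the compared groups only. At 1 µM the count of 3 was 0, 6, 0, 0 and 5 under the same settings. At 4 µM the count of 3 was 1 with median centring, 0 in the low-intensity set and 1 with the replicate block. With the JAK1 inhibitor at 0.25 µM the count of 0 was 3 with quantile normalization and 2 with the compared groups only. At 1 µM the count of 3 was 0 with median centring, 7 with quantile normalization, 0 in the low-intensity set, 0 in the high-intensity set and 7 with the compared groups only. At 4 µM the count of 1 was 0 with median centring, 0 in the low-intensity set and 0 with the replicate block. The slope of the JAK1 inhibitor had 2 with the compared groups only. Leaving out 1 sample gave counts of 0 to 1 for IL-2, 0 to 1, 0 to 1 and 1 to 2 for the JAK3 inhibitor at 0.25, 1 and 4 µM, and 0 to 3 and 0 to 0 for the JAK1 inhibitor at 1 and 4 µM. The number of all genes called moved with the settings. In the main fit, with median centring, quantile normalization and the compared groups only, it was 987, 276, 1685 and 2258 for the JAK3 inhibitor at 0.25 µM. In the same order it was 1293, 430, 2062 and 2582 at 1 µM and 1483, 602, 2498 and 1073 at 4 µM. For the JAK1 inhibitor it was 445, 52, 1127 and 1770 at 0.25 µM and 1019, 298, 1728 and 2092 at 1 µM. The cause of these differences was not tested, beyond the fewer samples in the sets, with 3 and 1 residual degrees of freedom. Smaller shifts for the 9 genes were counts of 4 with quantile normalization and 2 with the compared groups only at 4 µM of the JAK3 inhibitor, 4 with the lowest 25% of genes left out at 1 µM of it, and 2 with the replicate block at 1 µM of the JAK1 inhibitor, each in place of 3. The counts under the other settings were as reported, and the comparisons at matched doses had 0 under every setting run. Few or none of all genes were called in those comparisons, with 89 at 0.25 µM and 0 at 1 and 4 µM in the main fit. The counts of 0 therefore do not show that the compounds act alike. The residuals of the fit could not show whether replicate numbers pair the samples. Over 38 same-numbered pairs they correlated from -0.54 to 0.70 with a median of -0.01, and 16 exceeded 0.1. Over 84 pairs with different numbers they ran from -0.81 to 0.54 with a median of 0.01, and 29 exceeded 0.1. In the inhibitor groups at 0.25 and 1 µM, replicate 1 lay in the high-intensity set and replicate 2 in the low-intensity set. A replicate difference shared by those groups is taken up by the set term. The block left 6 residual degrees of freedom. Signal over background was not used, so it is unknown what it limits for Tob1, the dimmest gene.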
